A study of Mus musculus with 12 samples.

Results

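The genes described here are 7 members of the BCL2 family, the proteins that decide whether the outer mitochondrial membrane is opened during apoptosis. They are the BH3-only genes Bbc3, Bcl2l11 and Bnip3, the pore-forming effector Bax, and the anti-apoptotic genes Bcl2, Bcl2l1 and Mcl1. They were chosen by symbol from a count table of 12145 genes, and all 7 had a row and passed the filter on low counts, as did 12119 genes in all.

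The series measured RNA in mouse (C57BL6) cortical cultures prepared from E16.5-E17.5 embryos. All cultures received lentivirus on day 6 in vitro (DIV 6) at a total multiplicity of infection of 2, either an empty virus or one carrying miR-29, labelled miR-29c. On DIV 14 they underwent 3 h of oxygen-glucose deprivation (OGD), a culture model of ischemia, followed by 4 h of recovery, or a sham buffer change in normal oxygen. The sham groups were sham-empty (n = 2 usable libraries) and sham-miR-29 (n = 3), the injured groups OGD-empty and OGD-miR-29 (n = 3 each), and cultures with the same replicate number were dissected on the same day. Every culture carried a virus, so no group shows uninfected cells. Markers of neurons, astrocytes, oligodendrocyte lineage cells and microglia had counts in every group. Nearly every gene of the count table passed the filter on low counts, so this carries little weight on which cell types were present. In bulk RNA of such cultures, fewer cells of a type and less RNA per cell cannot be told apart.

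As background, BH3-only proteins act as sensors of stress: they bind and neutralise the anti-apoptotic proteins, and some of them activate BAX directly. Free BAX, with its relative BAK, permeabilises the mitochondrion, releases cytochrome c and starts the caspase cascade. In maturing neurons the miR-29 family is known as a brake on this pathway through repression of several BH3-only transcripts.

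The sequences of the miR-29 family and of its possible pairing sites in the 7 genes are shown first because the virus was designed to raise this microRNA. The 3 mature 3p forms (RefSeq, GRCm38.p6) share 1 seed, bases 2 to 8 from the 5′ end, in capitals.
mmu-miR-29a-3p: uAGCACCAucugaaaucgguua
mmu-miR-29b-3p: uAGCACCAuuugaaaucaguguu
mmu-miR-29c-3p: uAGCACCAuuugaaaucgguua
The genes of miR-29c and miR-29b-2 lie on chromosome 1 and that of miR-29a on chromosome 6. The level of miR-29 itself was not analysed here, so the effect of the virus on its own product was not checked.

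The motif TGGTGCT, the DNA complement of that seed, was searched on the transcript strand of the longest annotated 3′ UTR of each gene (GENCODE M21, GRCm38). It was present in 3 of the 7 genes, Bbc3, Bcl2l11 and Mcl1, at 4 places. They are printed 5′ to 3′ with the motif in capitals, to show where this form of match lies.
Bbc3, chr7:16317535-16317557, + strand: ctcaggaaaggctgcTGGTGCTg
Bbc3, chr7:16317620-16317642, + strand: ctggcctcaggccccTGGTGCTt
Bcl2l11, chr2:128158398-128158420, + strand: gtcatgtccctctctTGGTGCTg
Mcl1, chr3:95661844-95661866, + strand: ctagagtcttaaccaTGGTGCTa
The Mcl1 match is followed by an a, which makes it the 8-base form of the site. No match was found in the 3′ UTRs of Bnip3 (1079 nt), Bax (224 nt), Bcl2 (5086 nt) or Bcl2l1 (1477 nt). Over the whole table, 1628 of 9682 genes with an annotated 3′ UTR held the motif, 16.8%. Shorter or other forms of seed match, other 3′ UTR forms and coding regions were not searched. A match is a run of letters and not a site shown to bind. The count table sums reads over genes and does not resolve these positions.

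Some facts about the libraries touch the results. The column labelled sham-empty replicate 3 did not hold read counts (it summed to 22859, against 1337564 to 6616920 elsewhere) and was left out. Depth was low, with 231500 to 1362484 counts per library outside the mitochondrial genome and 3 to 321 counts per library for the 7 genes. In the OGD-empty libraries long genes were high relative to short ones: the median centred log2 CPM of the 1193 longest genes (from 148.6 kb), minus that of the 1193 shortest (up to 1.3 kb), was 0.56, 1.76 and 0.68 in replicates 1 to 3, against -0.74 to 0.19 in the other 8 libraries. OGD-empty replicate 2 stands apart by this measure.

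Values below are CPM, read counts brought to a common library size, with sizes scaled by edgeR's trimmed mean of M-values. A gene is called changed where the adjusted p of edgeR's quasi-likelihood test was under 0.05, after Benjamini-Hochberg adjustment over all 12119 genes. CPM values are not divided by gene length, so levels are compared between groups and not between genes.

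Bbc3 encodes PUMA, a BH3-only protein that p53 induces and that binds all the anti-apoptotic members. Bbc3 (ENSMUSG00000002083, chromosome 7, + strand) stood at 8.95 and 11.6 CPM in sham-empty replicates 1 and 2, and at 9.86, 8.07 and 10.3 CPM in sham-miR-29 replicates 1 to 3. After OGD it stood at 6.95, 3.61 and 12.9 CPM with the empty virus and at 11, 17.3 and 18.3 CPM with miR-29. The OGD-miR-29 mean of 15.5 ± 3.94 CPM (SD, n = 3) was the highest of the 4 groups and the OGD-empty mean of 7.81 ± 4.69 CPM (SD, n = 3) the lowest. Ranges of groups next to each other in this order all overlapped. On each of the 3 dissection days the OGD-miR-29 value was above the OGD-empty value.

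Bcl2l11 encodes BIM, the BH3-only protein that FOXO factors and JNK signalling induce when neurons lose trophic support. The Bcl2l11 level (ENSMUSG00000027381, chromosome 2, + strand) was 3.98 and 5.79 CPM in sham-empty, and 6.07, 7.3 and 6.43 CPM in sham-miR-29. After OGD it was 5.87, 3.16 and 4.29 CPM with the empty virus and 2.57, 3.54 and 1.44 CPM with miR-29. Both sham-empty values lay below all 3 sham-miR-29 values, and all 3 OGD-miR-29 values lay below every sham value. The OGD groups overlapped, since OGD-miR-29 replicate 2 was above OGD-empty replicate 2. The lowest value rests on 3 counts, with an exact 95% Poisson interval of 0.619 to 8.77 counts that covers counting error only.

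Bnip3 encodes an atypical BH3-only protein of the mitochondrial membrane that hypoxia induces through HIF1 and that serves as a mitophagy receptor. Bnip3 (ENSMUSG00000078566, chromosome 7, - strand) had 12.9 and 18.5 CPM in sham-empty and 19, 16.9 and 15.9 CPM in sham-miR-29. It had 14.5, 10.8 and 12.3 CPM in OGD-empty and 18.6, 19.7 and 22.1 CPM in OGD-miR-29. The OGD groups did not overlap. Sham-empty replicate 1 lay inside the OGD-empty range, and no OGD-empty value was above any sham-miR-29 value.

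Bax encodes the effector that forms the pore. Its level (ENSMUSG00000003873, chromosome 7, - strand) was 66.6 and 61.9 CPM in sham-empty and 55.4, 45.4 and 51.9 CPM in sham-miR-29. After OGD it was 33.7, 23 and 45 CPM with the empty virus and 59, 63 and 38.9 CPM with miR-29. The OGD-empty group lay below both sham groups with no overlap. The OGD-miR-29 group spread from the upper part of the OGD-empty range to the sham-empty values, with replicate 3 below its OGD-empty partner.

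Bcl2, the founding anti-apoptotic member, is the longest of the 7 genes at 176.1 kb. Bcl2 (ENSMUSG00000057329, chromosome 1, - strand) had 6.96 and 2.89 CPM in sham-empty and 2.28, 6.53 and 5.4 CPM in sham-miR-29. It had 7.72, 26.6 and 7.5 CPM in OGD-empty and 2.76, 4.33 and 4.81 CPM in OGD-miR-29. All 3 OGD-empty values were above every other library, and replicate 2 alone put the OGD-empty mean at 14 ± 11 CPM (SD, n = 3).

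Bcl2l1 encodes BCL-XL, the main anti-apoptotic member of mature neurons, and by splicing also the pro-apoptotic BCL-XS, which a count per gene cannot separate. Bcl2l1 (ENSMUSG00000007659, chromosome 2, - strand) had 11.9 and 17.9 CPM in sham-empty and 14.4, 15.4 and 22.6 CPM in sham-miR-29. It had 17.45, 11.7 and 19.8 CPM in OGD-empty and 22.6, 20.1 and 23.1 CPM in OGD-miR-29. The OGD groups did not overlap, with 20.1 CPM the lowest value of the one and 19.8 CPM the highest of the other.

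Mcl1 encodes a short-lived anti-apoptotic protein whose loss sensitises neurons to stress. The Mcl1 level (ENSMUSG00000038612, chromosome 3, + strand) was 29.8 and 34.1 CPM in sham-empty and 29.6, 25.4 and 30.3 CPM in sham-miR-29. It was 21.5, 21.7 and 23.6 CPM in OGD-empty and 33.4, 31.5 and 33.2 CPM in OGD-miR-29. The OGD-empty group was the lowest and overlapped no other group. Its SD was 1.17 CPM, and that of the next group, sham-miR-29, was 2.68 CPM. The gap between these group means was 2.31 times the larger SD.

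**Figure D1:**
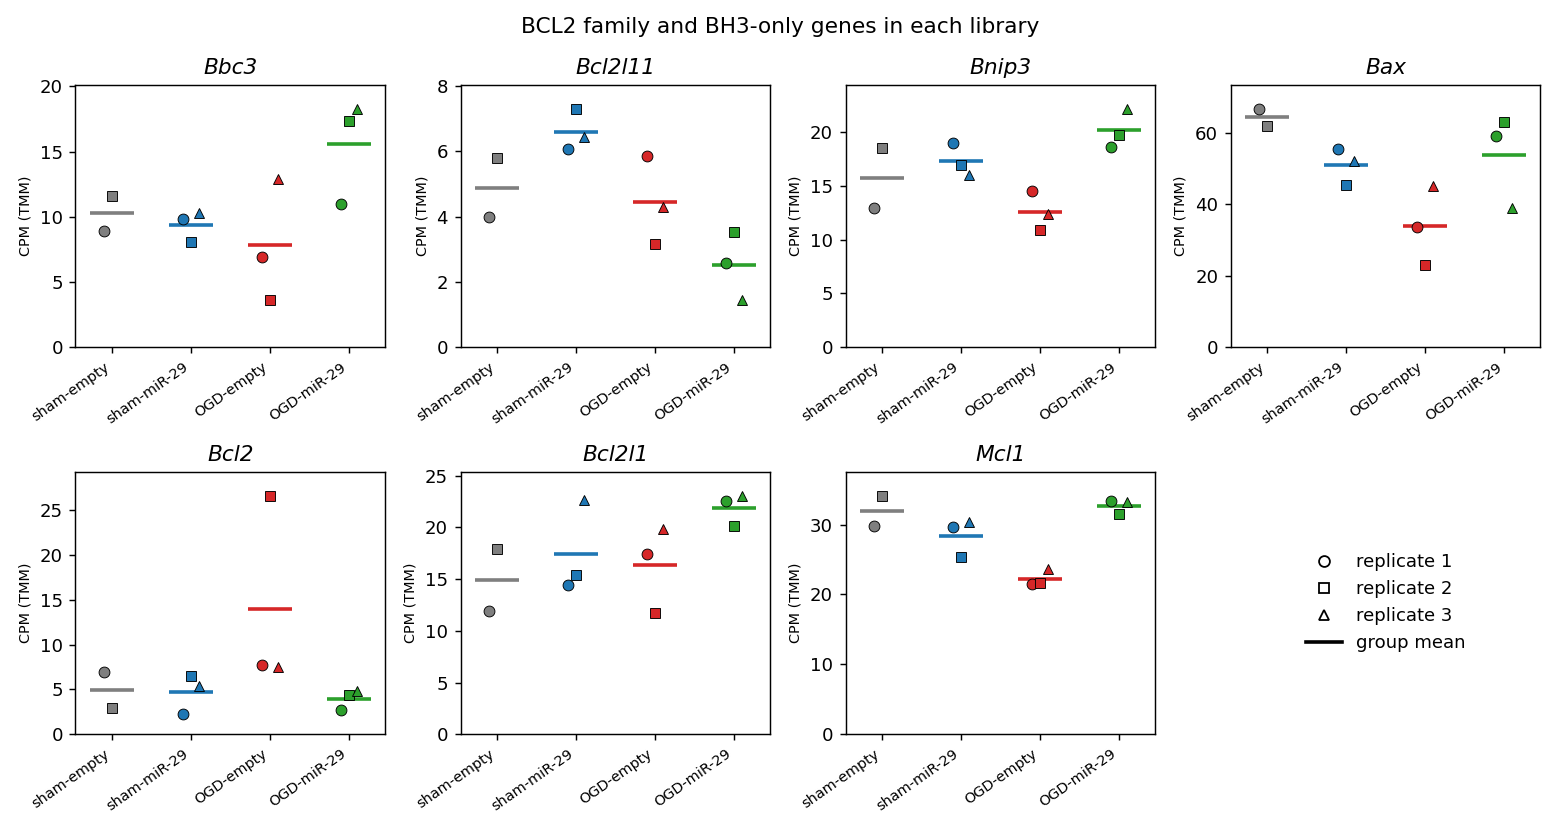
Library-size-scaled CPM of the 7 genes (vertical axis, from 0) in each of 11 libraries by group, with the marker shape giving the replicate number and the bar the group mean. Bbc3, Bnip3, Bcl2l1 and Mcl1 have their highest mean in OGD-miR-29, Bcl2l11 has its lowest mean there, and Bcl2 stands at 26.6 CPM in OGD-empty replicate 2.

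With the empty virus, Bax was lower after OGD, and the other 6 genes were not called. Of the 7 genes, 1 was called in OGD-empty against sham-empty, against 5.09% of all genes tested. The unadjusted edgeR p was under 0.05 for 2 of the 7 and for 2876 of all 12119 genes. Bax fell by 0.93 ± 0.26 on the log2 scale (SE; edgeR adjusted p = 0.0457), to 0.526 of the sham-empty level, and was lower on both days with a pair. Mcl1 stood at -0.54 ± 0.23 (edgeR adjusted p = 0.153), below its pair on both days. Bcl2 stood at 1.55 ± 0.76 (edgeR adjusted p = 0.239), above its pair on both days, by 0.14 on one and 2.94 on the other. Bbc3 (-0.48 ± 0.42), Bnip3 (-0.33 ± 0.28), Bcl2l11 (-0.09 ± 0.45) and Bcl2l1 (0.09 ± 0.31) had edgeR adjusted p between 0.497 and 0.979. The median log2 fold change of the 7 genes was -0.33, against 0.02 over all genes. The authors' deposited table for these 2 groups gives Bax a log2 fold change of -0.7 with a false discovery rate of 0.588. It gives no rate under that for the other 6. That table rests on a likelihood ratio test and not on the quasi-likelihood test used here. Whether it includes sham-empty replicate 3 was not checked.

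The Bax call was lost in 8 of the 11 fits that leave out 1 library, with an adjusted p of 0.256 without sham-empty replicate 2 and 0.197 without sham-empty replicate 1. It stayed without sham-miR-29 replicate 2, OGD-empty replicate 3 or OGD-miR-29 replicate 3, and without OGD-empty replicate 2 the change was -0.68. With the gene-length trend removed and the day as a block the change was -0.59 ± 0.24 (edgeR adjusted p = 0.16).

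After the miR-29 virus, OGD gave no call among the 7 genes. The count was 0 by edgeR, DESeq2 and limma-voom, against 0.0165% of all genes tested by edgeR. The unadjusted edgeR p was under 0.05 for 1111 of all 12119 genes and for 2 of the 7. Those 2 were BH3-only genes at opposite signs. Bcl2l11 stood at -1.34 ± 0.36 (edgeR adjusted p = 0.423), 0.395 of the sham-miR-29 level, below its pair on 3 of 3 days and with no overlap between the groups. Bbc3 stood at 0.67 ± 0.31 (edgeR adjusted p = 0.535), above its pair on 3 of 3 days. Mcl1 was above its pair on 3 of 3 days by small amounts, 0.13 to 0.31, with a fitted change of 0.20 ± 0.19 (edgeR adjusted p = 0.74). Bax, at 0.08, and the other 3 genes lay between -0.37 and 0.31.

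In sham cultures, where the miR-29 virus was compared with the empty virus without injury, no gene of the 7 was called. The count was 0 whether fitted by edgeR, by DESeq2 or by limma-voom, 0 of 7 had an unadjusted edgeR p under 0.05, and 0% of all genes were called by edgeR, where 405 of 12119 had an unadjusted p under 0.05. The 3 genes with a seed match stood at -0.15 ± 0.41 (Bbc3), 0.37 ± 0.44 (Bcl2l11) and -0.18 ± 0.22 (Mcl1). With SEs of this size and 2 sham-empty libraries, a decrease of a modest size in any of them was not detectable. Over all 1627 tested genes with a seed match the median log2 fold change was 0.03, against 0 over the 8043 with a 3′ UTR and no match, and 0 genes of either kind were called.

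Most calls among the 7 genes came from the comparison of the viruses after OGD: with miR-29, Bbc3, Bnip3, Bax and Mcl1 were higher and Bcl2 was lower than with the empty virus. These are 2 BH3-only genes, the effector and 1 anti-apoptotic gene that rose, and 1 anti-apoptotic gene that fell. The count of 5 of 7 stands against 37.1% of all genes tested (17.2% higher, 19.9% lower), so a call in this comparison was common in any gene. The median log2 fold change of the 7 was 0.56, against 0.02 over all genes.

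Bbc3, with 2 seed matches, rose by 1.00 ± 0.32 (SE; edgeR adjusted p = 0.019), 2-fold. Mcl1, with 1 match, rose by 0.56 ± 0.19 (edgeR adjusted p = 0.0258), 1.48-fold, with like values on the 3 days, 0.48 to 0.62. Bcl2l11, with 1 match, stood at -0.88 ± 0.37 (edgeR adjusted p = 0.0651) and was lower on 2 of 3 days. The 3 genes with a match did not share a sign. Of the 1627 tested genes with a match, 153 were higher and 471 lower, with a median of -0.25, against 1387 higher and 1571 lower of the 8043 without, with a median of 0.04. Genes with a match were also longer, with a median span of 40 kb against 26.7 kb, and the part of length in that difference was not tested.

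Bnip3 rose by 0.64 ± 0.22 (edgeR adjusted p = 0.0306), 1.55-fold, on 3 of 3 days. Bax rose by 0.67 ± 0.23 (edgeR adjusted p = 0.0276), 1.6-fold, on 2 of 3 days, with the change on single days between -0.21 and 1.43. Bcl2 fell by 1.83 ± 0.56 (edgeR adjusted p = 0.0255), to 0.282 of the OGD-empty level, on 3 of 3 days. Without OGD-empty replicate 2 its change was -1.09, still called (edgeR adjusted p = 0.0179). Bcl2l1 stood at 0.42 ± 0.24 (edgeR adjusted p = 0.179), above its pair on 3 of 3 days.

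**Figure D2:**
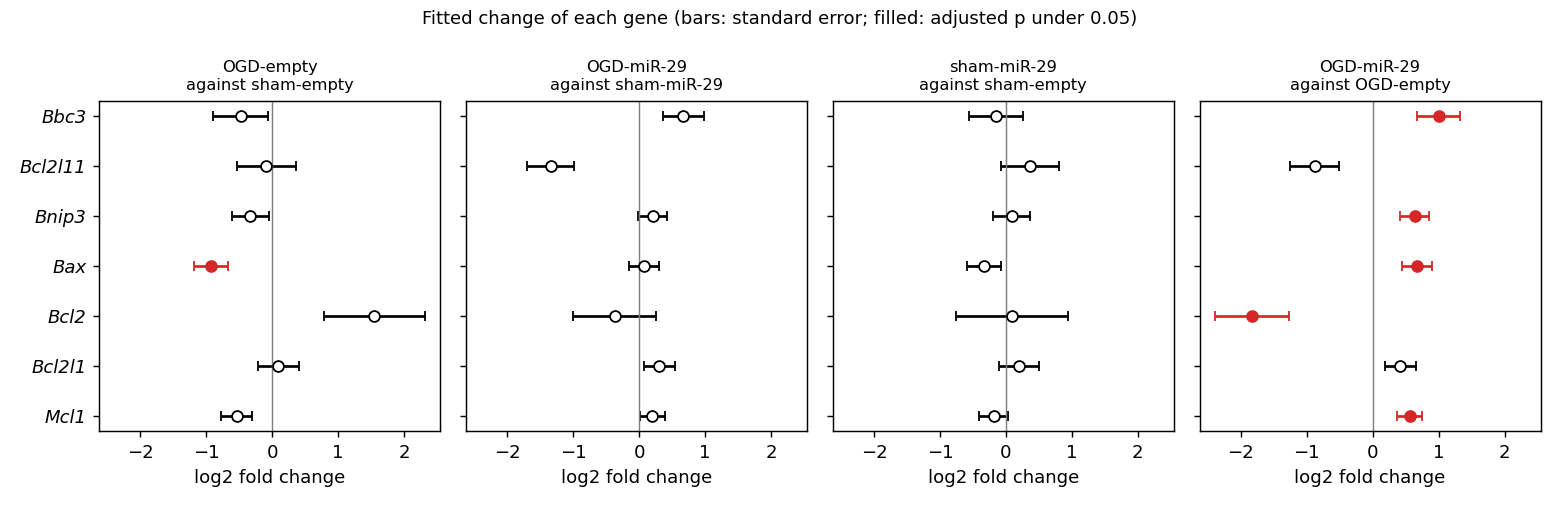
Fitted log2 fold change (horizontal axis) with its standard error for each gene in the 4 comparisons of groups, filled where edgeR's adjusted p was under 0.05. Bax is the 1 filled point in OGD-empty against sham-empty, 5 points are filled in OGD-miR-29 against OGD-empty, and none are filled in the other 2 comparisons.

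Each of these 5 calls was lost in some fits without 1 library. Leaving out each of the 11 libraries in turn, Bcl2 stayed called in 8 fits and Bbc3, Bnip3, Bax and Mcl1 in 7 each. The calls of Bbc3 ended without OGD-empty replicate 1 or 2 or OGD-miR-29 replicate 2 or 3, with adjusted p up to 0.0751, and without OGD-empty replicate 2 its change was 0.72. Those of Bnip3 ended without OGD-empty replicate 2 or 3 or OGD-miR-29 replicate 2 or 3 (adjusted p up to 0.103). Those of Bax ended without OGD-empty replicate 1 or 2 or OGD-miR-29 replicate 1 or 2 (up to 0.11). Those of Mcl1 ended without OGD-empty replicate 1 or 2 or OGD-miR-29 replicate 1 or 3 (up to 0.0873), and those of Bcl2 without any 1 OGD-miR-29 library (up to 0.121). Bcl2l11 became called without OGD-empty replicate 2, at -1.09 (adjusted p = 0.0241).

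The difference between the effect of OGD with miR-29 and with the empty virus was tested as an interaction. It was called for 0 of the 7 genes by edgeR, DESeq2 and limma-voom, against 8.38% of all genes by edgeR. The unadjusted edgeR p was under 0.05 for 3379 of all 12119 genes and for 4 of the 7. The estimates were 1.01 ± 0.35 for Bax (edgeR adjusted p = 0.069), 0.74 ± 0.29 for Mcl1 (0.107), 1.15 ± 0.52 for Bbc3 (0.158) and -1.25 ± 0.57 for Bcl2l11 (0.156). Bcl2 stood at -1.92 ± 1 (edgeR adjusted p = 0.234), and Bnip3 and Bcl2l1 at 0.54 and 0.22. Without OGD-empty replicate 3 the Bax interaction was called, at 1.24 (edgeR adjusted p = 0.0402). The comparisons with the OGD-empty group share its libraries, so their values are not independent of one another.

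Bax needs a separate account because its counts followed those of Ftl1, and whether reads were counted for both genes was not tested. Ftl1 encodes ferritin light chain and lies within 10 kb downstream of Bax on the same strand, at chr7:45457944-45459884, with Bax at chr7:45461697-45466898 (GRCm38). In the 11 libraries the Ftl1 count was 78.2% to 94.1% of the Bax count, and the Pearson correlation of their log2 CPM was 0.991. Gys1, on the opposite strand, also held 1.012 times the Bax count in sum. The Bax count less the Ftl1 count left 3 to 57 counts per library, an alternative chosen after the values were seen. On that remainder the change in OGD-empty against sham-empty was -1.47 ± 0.47 (edgeR adjusted p = 0.07), and in OGD-miR-29 against OGD-empty it was 1.15 ± 0.38 (edgeR adjusted p = 0.0226). Ftl1 itself stood at -0.82 ± 0.26 (edgeR adjusted p = 0.0636) and rose by 0.61 ± 0.22 (edgeR adjusted p = 0.039) in the same comparisons. The share of the Bax count that is Bax RNA was not tested.

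**Figure D3:**
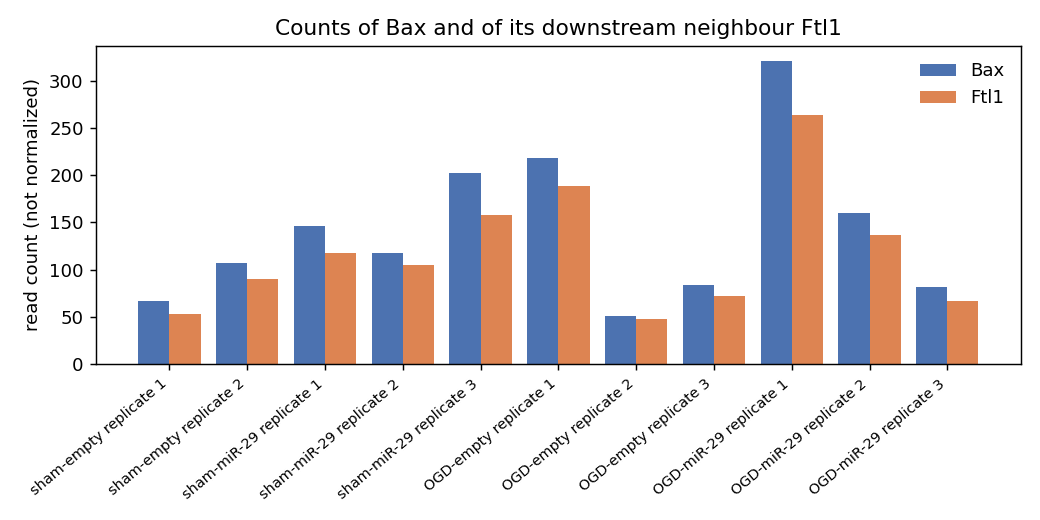
Read counts of Bax and Ftl1 (vertical axis, from 0, not scaled for depth) in each of 11 libraries. The pairs of bars follow each other from 51 and 48 counts in OGD-empty replicate 2 to 321 and 264 counts in OGD-miR-29 replicate 1.

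Bbc3 and Bnip3 also have neighbours that hold more counts than they do. Sae1, which encodes a subunit of the SUMO-activating enzyme, lies downstream of Bbc3 on the opposite strand with 1.791 times its summed count, and stood at 0.65 ± 0.27 in OGD-miR-29 against OGD-empty (edgeR adjusted p = 0.0646). Ppp2r2d, a phosphatase subunit downstream of Bnip3 on the opposite strand, held 1.514 times its count and stood at 0.53 ± 0.21 (edgeR adjusted p = 0.0574). The annotated spans within each pair do not overlap. The strand setting of the counting was not given in the sources used here, and whether reads were counted for both genes of a pair was not tested. Bcl2l11 and Mcl1 had no annotated neighbour in that window.

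The sign of the change in OGD-miR-29 against OGD-empty followed gene span for most of the 7 genes. The 4 that rose span 4.4 kb (Mcl1), 5.2 kb (Bax), 9.8 kb (Bbc3) and 18.7 kb (Bnip3), and Bcl2, which fell, spans 176.1 kb. Bcl2l11 (36.5 kb) and Bcl2l1 (51.1 kb), the genes of intermediate span, were the 2 not called and had opposite signs. With the trend on gene span removed from every library and the day as a block, Bbc3 stood at 0.62 ± 0.26 (edgeR adjusted p = 0.0816), Bnip3 at 0.43 ± 0.21 (0.144) and Bax at 0.24 ± 0.20 (0.405). Bcl2 then stood at -0.83 ± 0.32 (edgeR adjusted p = 0.058) and Mcl1 at 0.10 ± 0.18 (0.73). Bcl2l11 hardly moved, at -0.82 ± 0.38 (edgeR adjusted p = 0.106). Bcl2l1 was higher, at 0.65 ± 0.21, and became the 1 gene called (edgeR adjusted p = 0.0235).

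**Figure D4:**
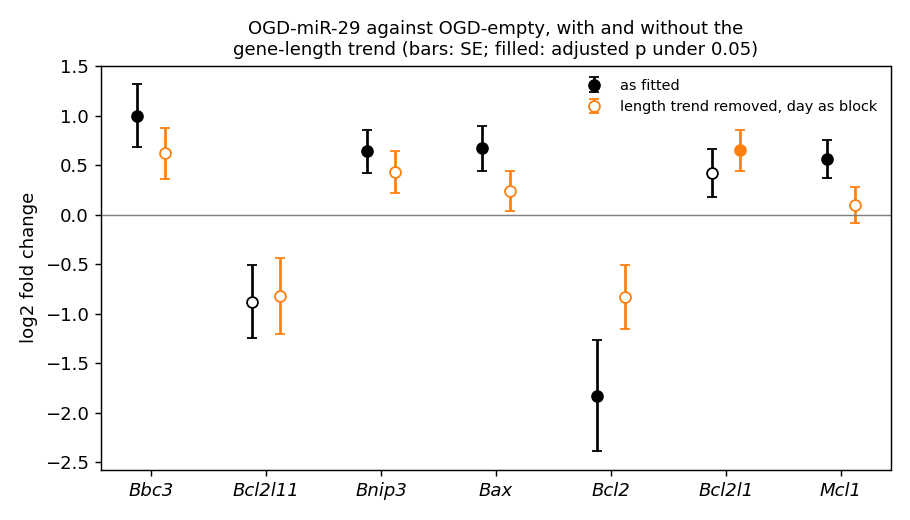
Log2 fold change of the 7 genes in OGD-miR-29 against OGD-empty (vertical axis) with standard errors, as fitted and with the gene-length trend removed and the day as a block, filled where edgeR's adjusted p was under 0.05. Mcl1 moves from 0.56 to 0.10 and Bcl2 from -1.83 to -0.83, while Bcl2l11 moves from -0.88 to -0.82.

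Summed levels of some marker sets differed between the OGD groups, and a sum can rest on its most abundant gene. The summed level of 8 neuronal markers was 1050 to 1330 CPM in OGD-empty and 698 to 814 CPM in OGD-miR-29, against 799 to 1000 CPM in sham-miR-29. In OGD-miR-29 against OGD-empty 2 of the 8 were called higher and 5 lower, beside 17.2% and 19.9% of all genes. The 6 astrocyte markers in the table, of 8 listed, summed to 96.6 to 114 CPM in OGD-empty and 64.9 to 80.6 CPM in OGD-miR-29. The 3 microglial markers in the table, of 8 listed, summed to 18.8 to 28 CPM and 32.1 to 36.1 CPM. The next sums are given for OGD-empty and OGD-miR-29 libraries in turn. The 3 oligodendrocyte lineage markers, of 7 listed, spanned 8.58 to 9.73 and 9.62 to 14.2 CPM. The 2 endothelial and mesenchymal markers, of 6 listed, spanned 12.5 to 16.6 and 16.7 to 21.7 CPM. The 3 progenitor markers, of 5 listed, spanned 16.1 to 19.6 and 14.5 to 22.6 CPM. Between the OGD groups 1 of 6 astrocyte markers and 1 of 3 progenitor markers were called lower with miR-29. Called higher were 1 of 3 microglial and 1 of 3 oligodendrocyte lineage markers, and 0 of 2 endothelial and mesenchymal markers were called. No marker in the table was at 0 in any group, which carries little weight, since 12119 of its 12145 genes passed the filter on low counts. The part of cell composition in the changes of the 7 genes was not tested.

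Other genes of the mitochondrial pathway were read from lists of 63 genes, of which 41 were tested. In OGD-miR-29 against OGD-empty 9 of the 41 were higher and 9 lower, 43.9% called against 37.1% of all genes. In OGD-empty against sham-empty 1 of the 41 was called, 2.44% against 5.09% of all genes. This was Vdac2, which encodes the mitochondrial porin that retains inactive BAK and fell by 0.97 (edgeR adjusted p = 0.0309). In the other 2 comparisons of groups 0 of the 41 were called.

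Of the listed remaining BCL2 family, 1 of 6 anti-apoptotic, 0 of 2 effector, 5 of 7 BH3-only and 2 of 4 atypical members were tested, and none of those tested was called in any of the 5 comparisons. In OGD-miR-29 against OGD-empty the BH3-only genes Bad, Bid and Hrk stood at 0.46 ± 0.34, -0.19 ± 0.24 and -0.05 ± 0.21, and Hrk has 3 seed matches in its 3′ UTR. Bcl2l2, which encodes the anti-apoptotic BCL-W and has 2 matches, stood at 0.12 ± 0.21, and Trp53, the gene of p53, at -0.24 ± 0.38 (edgeR adjusted p 0.294 to 0.884 for the 5 genes). Each of these 5 had a neighbour with over 0.5 of its own count. The RNA levels of Bak1, Bmf and Pmaip1 were not analysed here.

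Downstream of the mitochondrion, 3 of 10 tested apoptosome and caspase genes were higher after OGD with miR-29 than with the empty virus, and 2 were lower. Over all genes tested, 17.2% were higher and 19.9% lower. Among the 10, the mitochondrial nuclease gene Endog rose by 1.04 ± 0.34 (edgeR adjusted p = 0.0219) and the mitochondrial protease gene Htra2 by 1.19 ± 0.41 (0.0278). The caspase inhibitor genes Xiap and Birc6 fell by 1.27 ± 0.28 (edgeR adjusted p = 0.00198) and 1.18 ± 0.21 (0.000603). Mean Xiap levels were 13.8 CPM in sham-empty and 10.9 CPM in sham-miR-29. They were 19.1 CPM in OGD-empty, the highest of the 4, and 8.16 CPM in OGD-miR-29, the lowest.

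Among the 7 tested genes of mitochondrial channels and mitophagy, 4 were higher and 1 lower in the same comparison, beside 17.2% and 19.9% of all genes. Vdac1, Vdac2, the kinase gene Pink1 and the autophagy gene Becn1, whose product carries a BH3 domain, rose by 0.86, 0.97, 1.12 and 1.01 (edgeR adjusted p 0.000783 to 0.00279). Park2, which encodes the ubiquitin ligase parkin and spans 1223 kb, fell by 2.13. Of the 16 tested upstream regulators 2 were higher and 6 lower, beside those same shares of all genes. Ddit3, the gene of the stress factor CHOP, and Akt1, a survival kinase, rose by 0.92 and 0.65. Foxo1 and Foxo3, which drive Bcl2l11, fell by 1.91 and 0.78, the JNK3 gene Mapk10 by 1.80, and Huwe1, Fbxw7 and Usp9x, which add ubiquitin to MCL1 or remove it, by 1.03, 0.67 and 1.44.

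These genes too divided by span. The 9 higher genes spanned 2.6 to 28.5 kb and the 9 lower genes 50 to 1223 kb, and 7 of the 18 stayed called with the length trend removed, with or without the block: Xiap, Vdac1, Vdac2, Becn1, Pink1, Foxo1 and Usp9x. With the trend removed Fbxw7 changed sign, to 0.17 (edgeR adjusted p = 0.593), and Park2 stood at -0.04. In the 11 fits without 1 library, 12 of the 18 calls were never lost. That of Endog ended without OGD-empty replicate 2 or OGD-miR-29 replicate 2 (adjusted p up to 0.0982). That of Htra2 ended without OGD-empty replicate 1 or 2 or OGD-miR-29 replicate 2 or 3 (0.0997), and that of Akt1 without OGD-empty replicate 2, sham-miR-29 replicate 1 or any OGD-miR-29 library (0.19). That of Fbxw7 ended without OGD-empty replicate 2 or 3 or OGD-miR-29 replicate 1 or 2 (0.0984), and that of Foxo3 without OGD-miR-29 replicate 1 or 3 (0.0787). The call of Vdac2 in OGD-empty against sham-empty was lost without either sham-empty library or OGD-empty replicate 2 or 3 (adjusted p up to 0.239). Counts of Htra2, Vdac2, Becn1, Pink1, Akt1 and Ddit3 can hold reads of Loxl3, Comtd1, Cntd1, Ddost, Siva1 and Mars, each with over 0.5 of the gene's count within it or in the window downstream.

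**Figure D5:**
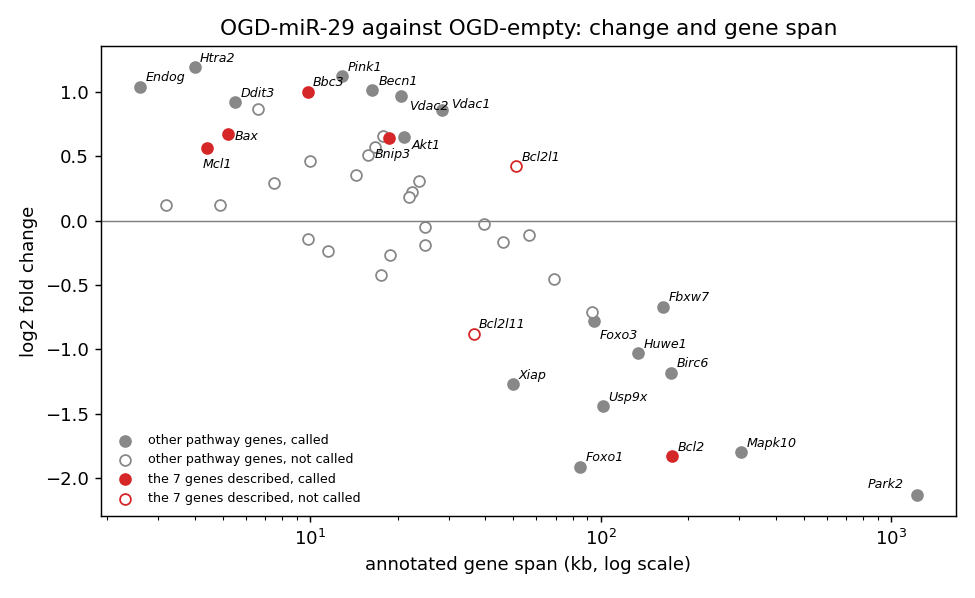
Log2 fold change in OGD-miR-29 against OGD-empty (vertical axis) against annotated gene span in kb (horizontal log axis) for the 7 genes and all but 1 of the 41 tested genes of the pathway lists, filled where edgeR's adjusted p was under 0.05. The called genes up to 28.5 kb lie above 0 and those from 50 kb lie below, with Bcl2 (176.1 kb) at -1.83.

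Over the 11 libraries the 7 genes did not vary as 1 block. Described by Pearson's r of log2 CPM (n = 11, libraries that share groups, depth and the length trend), Bcl2 ran opposite to Bnip3 (-0.806), Bax (-0.796), Mcl1 (-0.77) and Bbc3 (-0.699). Every r among Bbc3, Bnip3, Bax, Bcl2l1 and Mcl1 was positive, from 0.25 (Bax and Bcl2l1) to 0.76 (Bnip3 and Mcl1). Bax and Mcl1 stood at 0.75 and Bbc3 and Bnip3 at 0.724. Bcl2l11 had no r beyond -0.315 to 0.177 with any of the 6 others.

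The genes of the table whose log2 CPM was most like each member over the same 11 libraries are given as a description. For Bbc3 Ptges3l was among them (r = 0.958), for Bcl2l11 they were Mn1 (0.884) and Ankrd63 (0.877), and for Bnip3 Dhrs7b (0.958) and Rhot2 (0.956). For Bcl2 they were Ptbp2 (0.972) and Cacna1d (0.966), for Bcl2l1 Akt1 (0.96) and Cd63 (0.944), and for Mcl1 Atp5a1 (0.985) and Tmsb4x (0.969). For Bax they were Ftl1 and Gm22133 (0.977), a microRNA gene annotated within the span of Ftl1. Both lie downstream of Bax and outside its annotated span.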

How the data were processed

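The authors deposited read counts per gene symbol, not normalized, for 12 libraries of total RNA depleted of ribosomal RNA. The submitters' processing notes name STAR 2.5.0a, featureCounts 1.4.3-p1, edgeR and the mm10 build, without roles. Annotation, strandedness and filtering are not given in the sources used here. Comparison tables deposited by the authors hold log2 fold changes, log2 CPM, likelihood ratio scores and p-values, and are quoted once, for Bax. Of the per-sample columns, 0 were unmapped.

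The 11 libraries with counts were fitted together with 4 group means in edgeR 4.0.16 (trimmed mean of M-values, filterByExpr, robust quasi-likelihood F test, R 4.3.3). The fit was also run on simulated counts with the same dispersion for all genes and no trend on gene length. That run therefore does not cover the length trend of these libraries. CPM use library totals that include the mitochondrial rows, 57.6% to 84.1% of each sum. SEs are the log2 fold change over the square root of F. The 7 genes, the pathway lists and the markers were chosen with earlier results of these data known. All 7 genes are named, as are listed genes called in any comparison and 8 family or regulator genes in any case, and the 2 genes most correlated with each of the 7; a listed gene and a correlated gene that the rule names are not reported here. Gene spans came from GENCODE M21 for 11953 of 12145 symbols, 597 through an older symbol.

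Alternatives were DESeq2 1.42.0, limma-voom 3.58.1, other size factors, no filter, no mitochondrial rows, only the groups compared, leaving out each library, the replicate number as a block, and removal of a lowess trend (span 0.3) of centred log2 CPM on gene span. Per the design text, replicate sets are cultures dissected on distinct days, so the numbers pair the libraries. Correlations of deviations from group means were -0.0898 to 0.232 over 15 same-numbered pairs (median 0.00666; 0 over 30 other pairs). The 2 sham-empty libraries deviate from their mean by equal and opposite amounts, so these medians are partly fixed and cannot check the pairing.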

Additional observations from a re-analysis of the deposited data

Results flagged for a closer look

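None of the 7 genes had an effect of OGD that differed by virus past the threshold. Of the 41 tested pathway genes, 5 did by edgeR's test of the difference itself, 12.2% against 8.38% of all genes tested. That difference is the change by OGD with miR-29 minus the change by OGD with the empty virus, each against its own sham group. The porin genes Vdac1 and Vdac2 differed by 0.98 ± 0.28 (edgeR adjusted p = 0.0337) and 1.15 ± 0.32 (0.0314). Fitted with the day as a block and without the trend on gene length, they stood at 1.01 (edgeR adjusted p = 0.0179) and 1.11 (0.0167), still called. Ddit3 differed by 1.36 ± 0.32 (edgeR adjusted p = 0.0157), and by 0.99 (0.0296) in that same fit, but with the length trend removed and no block it stood at 0.91 and was not called (0.0638). The long ubiquitin ligase genes Birc6 and Huwe1 differed by -1.13 ± 0.32 (edgeR adjusted p = 0.0327) and -1.14 ± 0.34 (0.0428), and stood at -0.27 (0.607) and -0.46 (0.343) in that fit. All 5 calls were lost without sham-empty replicate 1 or 2, with adjusted p of 0.0593 to 0.234. That of Ddit3 was lost in none of the other 9 fits that leave out 1 library. The other 4 were also lost without sham-miR-29 replicate 1 or 2 or OGD-miR-29 replicate 3, those of Vdac1, Birc6 and Huwe1 without OGD-miR-29 replicate 2, and that of Vdac1 without OGD-empty replicate 3. Counts of Vdac2 and Ddit3 can hold reads of Comtd1 and Mars.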

How the results depend on the processing

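The number of the 7 genes called in OGD-empty against sham-empty, 1 as reported, was 0 with the length trend removed, 0 with it and the replicate block, 0 with only the groups compared and 0 with the Bax count less the Ftl1 count. It ranged from 0 to 1 when each library was left out in turn. In OGD-miR-29 against OGD-empty, 5 as reported, it was 3 by DESeq2 (Bnip3 at adjusted p = 0.0803 and Mcl1 at 0.0606 were lost), 4 with only the groups compared (Bax at 0.06 was lost), 1 with the length trend removed and 1 with it and the block, and 1 to 5 without single libraries. Called by interaction were 0 to 1 without single libraries. It was 0 under every alternative run in OGD-miR-29 against sham-miR-29 and in sham-miR-29 against sham-empty. The replicate block on its own changed no call among the 7 genes, with 1, 0, 0, 5 and 0 called in the 5 comparisons. No sign of a called value among the 7 genes reversed. Among the listed genes, Fbxw7 in OGD-miR-29 against OGD-empty reversed to 0.17 with the length trend removed and to 0.16 with the block added. Over all genes, 617 calls in OGD-empty against sham-empty became 298 with the length trend removed, 1369 with the block, 201 with only those groups, 12 without sham-empty replicate 1 and 76 without replicate 2, 402 without sham-miR-29 replicate 1, and 984 and 367 without OGD-empty replicate 1 and 3. In OGD-miR-29 against OGD-empty 4501 became 2720 with the trend removed and 2901 with the block added. In OGD-miR-29 against sham-miR-29, 2 became 5 with the block or only those groups, 18 with the trend removed, 25 with both and 21 without OGD-empty replicate 2. The 1015 interaction calls became 1861 with the block, 564 with the trend removed, 64 and 93 without sham-empty replicate 1 and 2, 647 and 308 without sham-miR-29 replicate 1 and 2, and 634 and 439 without OGD-miR-29 replicate 2 and 3. Causes of these shifts were not tested. With 3 to 321 counts per library, small changes of the 7 genes were not detectable.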
